A study of Homo sapiens with 14 samples.

Results

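The SR splicing factor genes were examined in RNA-seq data from a human breast cancer line with mesenchymal features, MDA-MB-231. Members were chosen by gene symbol and were SRSF1, SRSF2, SRSF3, SRSF4, SRSF5, SRSF6, SRSF7, SRSF9, SRSF10 and SRSF11, which are 10 of 60876 annotated genes and 110 of 225662 annotated transcripts with deposited values. All 10 genes passed the filter on low counts. Polyadenylated RNA was sequenced in 14 libraries that fall into 7 groups of 2 replicates. Treated cells were given RBI2 at 5 µM, or CX-5461 at the same dose, for 10, 30 or 120 min, and the control group received neither compound. RBI2 is a small molecule studied as an inhibitor of ribosome biogenesis, and CX-5461 is a known inhibitor of RNA polymerase I. The study's methods call the control cells untreated, while its results speak of a DMSO control, so whether the control held the solvent cannot be told here. Times are those of the sample labels. The names of the deposited files carry time codes that conflict with them: the code 02 stands on libraries labelled 10 min, the code 10 on those labelled 30 min and the code 30 on those labelled 120 min. The unit of the codes is not given, and if 02 stood for hours the order of the times would differ as well. Which is right cannot be told here, so every time below is a label that may be neither the true duration nor in the true order. Directions from one label to another, and words such as earlier and later, hold for the labels only, while comparisons of the compounds at the same label and with the control do not rest on the order. All libraries come from 1 cell line. Nothing states that the replicates came from separate cultures, so p-values measure only the spread between these libraries.

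SR proteins are RNA-binding proteins with an RNA recognition motif and a tail rich in arginine and serine. They bind exonic enhancers, help the spliceosome to recognise splice sites, and several of them also act in mRNA export and translation. Their own genes are known for making a second kind of transcript besides the coding mRNA: an exon with an early stop codon (a poison exon) is included, or an intron is kept. Such transcripts are held in the nucleus or degraded by nonsense-mediated decay, and an SR protein can promote this choice on its own pre-mRNA. Here protein_coding transcripts are called coding, and transcripts annotated as retained_intron or nonsense_mediated_decay are called unproductive. The members have 42 coding transcripts, 29 retained_intron transcripts, 22 nonsense_mediated_decay transcripts and 17 of other types.

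Each library held 14112299 to 24849354 estimated reads, with a median of 16305236. Control replicate 2 stood apart from the other libraries: mitochondrial genes took 20.6% of its reads against 8.14% to 11.3% elsewhere, and 1412 genes differed by more than 2-fold between the control replicates against 461 to 629 genes between the replicates of other groups. Each call against the control is therefore given with and without this library. Without it the control is a single library that is taken to vary like the other groups. The 6 marker genes of MDA-MB-231 summed to 3822 to 5142 TPM (Salmon's unit, a level per transcript length). Of 6 hormone receptor and luminal breast genes, ESR1, PGR, CDH1 and FOXA1 stayed under 1 TPM in every library, while ERBB2 was at 14.8 to 22.9 TPM and GATA3 at 1.82 to 3.48 TPM. All 4 immune markers were under 1 TPM. Of 4 fibroblast markers 3 stayed under 1 TPM in every library, and COL1A1 was at 0.675 to 2.16 TPM.

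The sequences below show where the unproductive transcripts of 6 members leave the reading frame or the spliced form of their coding transcript. All are read 5′ to 3′ from GRCh38 with GENCODE 44 exons. In the first 5 the capitals mark the early stop codon, and the run starts where the unproductive transcript departs from the coding one, apart from SRSF7-208, where 48 bases of coding exon precede 13 bases of intron. The SRSF3 run (chr6:36599821-36599854, plus strand) is the start of a 456-base poison exon. The SRSF4 run (chr1:29166009-29166064, minus strand) opens a 175-base exon. The SRSF5 run (chr14:69769511-69769561, plus strand) opens a 1030-base exon, and the SRSF7 run (chr2:38749516-38749576, minus strand) lies in a 1127-base exon that keeps an intron. The SRSF6 run (chr20:43459153-43459304, plus strand) opens a 268-base poison exon.
SRSF3-203: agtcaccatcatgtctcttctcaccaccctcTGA
SRSF4-205: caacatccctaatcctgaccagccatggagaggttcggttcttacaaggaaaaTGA
SRSF5-211: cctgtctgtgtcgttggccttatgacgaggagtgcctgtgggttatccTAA
SRSF6-202: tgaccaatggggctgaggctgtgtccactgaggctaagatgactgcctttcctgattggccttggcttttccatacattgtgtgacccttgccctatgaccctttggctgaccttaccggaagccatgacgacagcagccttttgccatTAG
SRSF7-208: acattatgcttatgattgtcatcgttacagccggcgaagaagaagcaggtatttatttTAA
The stops lie 548, 603, 1090, 534 and 1138 bases before the last exon junction of SRSF3-203, SRSF4-205, SRSF5-211, SRSF6-202 and SRSF7-208. A stop far ahead of the last junction is the feature that nonsense-mediated decay is known to read. The next run is the intronic start of SRSF7-211, the retained_intron transcript of SRSF7 (chr2:38746748-38747044, minus strand). Its 297 bases precede an exon that the coding transcript also uses, and the capitals mark the AG of the acceptor that the coding transcript joins.
SRSF7-211: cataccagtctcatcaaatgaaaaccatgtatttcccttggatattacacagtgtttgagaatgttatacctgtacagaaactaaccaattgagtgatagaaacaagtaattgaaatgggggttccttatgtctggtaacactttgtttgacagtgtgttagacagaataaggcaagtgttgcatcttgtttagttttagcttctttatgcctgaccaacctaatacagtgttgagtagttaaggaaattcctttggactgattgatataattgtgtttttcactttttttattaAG
The last pair of runs are the ends of a 3635-base intron of SRSF10. The retained_intron transcript SRSF10-213 begins inside it and takes in its last 2575 bases. Capitals mark the first bases of the intron, from the coding SRSF10-207 (chr1:23978693-23978712, minus strand), and its last bases, within SRSF10-213 (chr1:23975078-23975137, minus strand). The intron opens with AT and closes with AC, the ends known for introns of the minor spliceosome.
SRSF10-207: ATatcctttcttcagatggc
SRSF10-213: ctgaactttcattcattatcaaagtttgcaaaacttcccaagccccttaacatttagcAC

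Per transcript length, the members spanned a wide range. SRSF2, an SR protein with a single RNA recognition motif, and SRSF3, which is also an adaptor for mRNA export, had the highest medians over the 14 libraries, 405 and 389 TPM. They were followed by SRSF9 (333 TPM), SRSF1 (319.7 TPM), SRSF7 (250.5 TPM) and SRSF5 (239 TPM). SRSF10 (159.6 TPM), SRSF11 (152 TPM) and SRSF6 (149 TPM) formed a lower group, and SRSF4 was lowest at 60.4 TPM. Most neighbours in this order could not be separated beyond their spread. SRSF9 lay above SRSF1 in 8 of 14 libraries, SRSF7 above SRSF5 in 9, SRSF10 above SRSF11 in 10, SRSF2 above SRSF3 in 11 and SRSF11 above SRSF6 in 7. SRSF3 exceeded SRSF9 in 13 libraries and SRSF1 exceeded SRSF7 in 13. SRSF5 was above SRSF10 in all 14, although their ranges overlapped. Only SRSF6 and SRSF4 were neighbours without overlapping ranges, 134 to 185 TPM against 51.7 to 91.6 TPM. In CPM (counts scaled to library size, here with TMM), the highest library exceeded the lowest by 1.24-fold for SRSF3 up to 1.85-fold for SRSF9. In TPM, SRSF9 ranged from 135 to 363, SRSF11 from 124 to 239 and SRSF1 from 262 to 377. Since CPM and TPM are shares of a library, a change in the RNA content of the cells as a whole cannot be told apart from none. The low end of SRSF9 was control replicate 2.

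**Figure D1:**
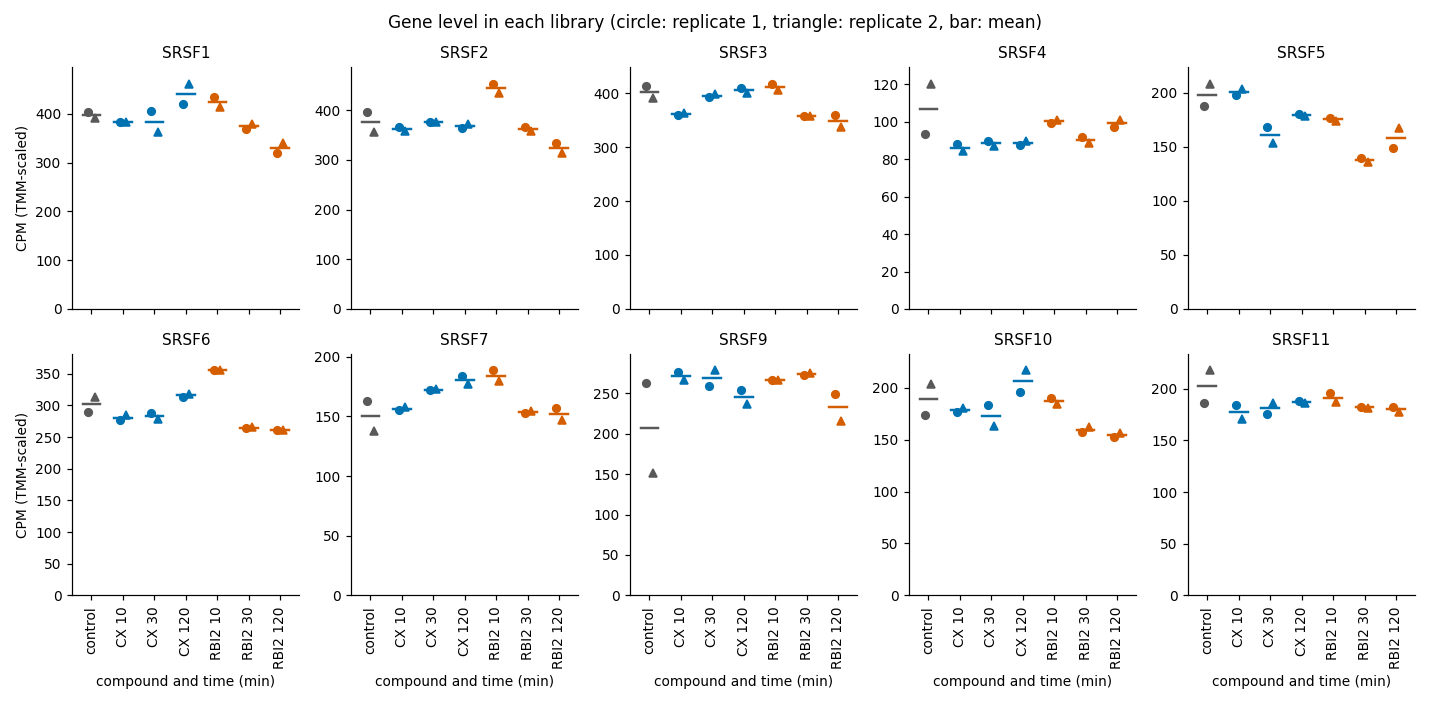
CPM of each SR gene in the 14 libraries, 1 panel a gene; circles are replicate 1, triangles replicate 2 and bars group means, with the control in grey, CX-5461 (CX) in blue and RBI2 in orange. Within RBI2 the libraries of SRSF6, SRSF2, SRSF1 and SRSF3 are highest at 10 min, and control replicate 2 is the low point of SRSF9.

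The direct comparison of the compounds asked whether RBI2 and CX-5461 leave the same SR gene levels at the same labelled time, since both are studied for their effect on ribosome biogenesis. At 10 min SRSF6 and SRSF2 were higher after RBI2. At 120 min SRSF1, SRSF10, SRSF6 and SRSF3 were lower after RBI2, and SRSF2 was not called. The called differences lay between -0.42 and 0.34 on the log2 scale. At 10 min 2 of 10 members were called higher and 0 lower, where 3.06% of 15426 genes were called, 2.23% higher and 0.830% lower. At 120 min 4 of 10 were called lower and 0 higher, where 16.1% of genes were called, 10.9% lower and 5.28% higher. At 30 min 0 members were called by edgeR, 2 had an unadjusted p under 0.05 (7.79% of all genes), DESeq2 called 0, and 0.0130% of all genes were called. The members' median log2 difference (RBI2 minus CX-5461) went from 0.17 at 10 min to -0.078 at 30 min and -0.20 at 120 min, while the median over all genes was 0.0089, 0.0078 and 0.0055. No member passed a 2-fold limit as well, against 1.04%, 0.0130% and 1.67% of genes at 10, 30 and 120 min. With transcript length as an offset, 0 members were called at 10 min and 1 at 120 min. The control libraries share the model but are not part of this contrast. Without control replicate 1, 5 and 6 members were called at 10 and 120 min, where 6.21% and 27.8% of genes were called. Without control replicate 2, 3 and 7 members were called, where 6.09% and 27.9% of genes were. Why these counts moved was not tested. Without 1 of the other libraries 0 or 1 members were called at 10 min and 0 to 4 at 120 min. Calls are at an adjusted p under 0.05 in the quasi-likelihood test of edgeR, with p-values adjusted over all genes by Benjamini and Hochberg's method, with all 14 libraries in the model, and errors of log2 differences are SEs from 2 libraries a group.

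**Figure D2:**
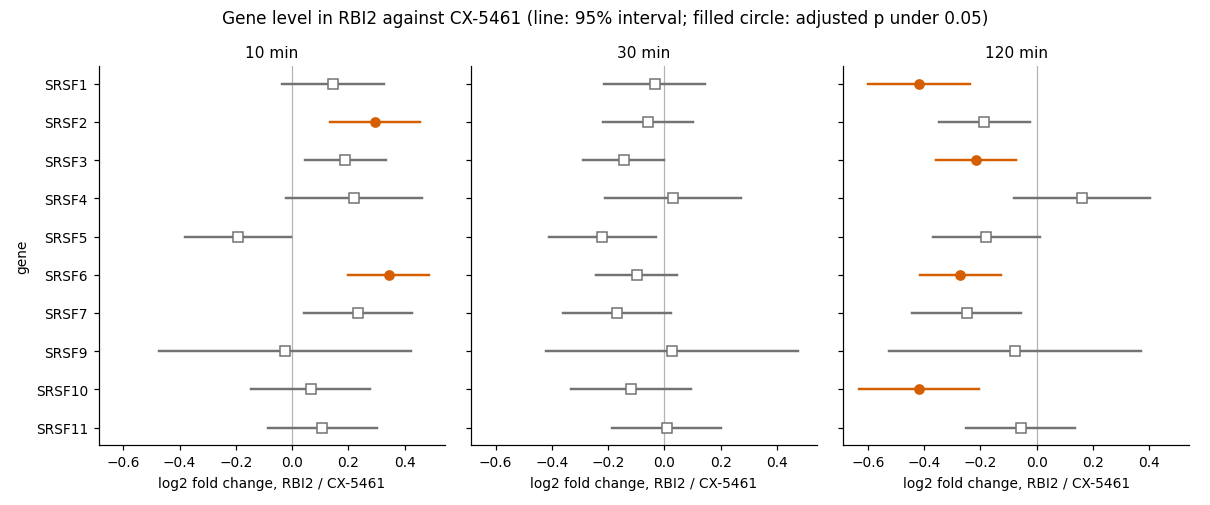
Log2 difference of CPM between RBI2 and CX-5461 at 10, 30 and 120 min for each SR gene, with 95% intervals as lines; filled circles are called and open squares are not. SRSF6 and SRSF2 lie above 0 at 10 min, and SRSF1, SRSF10, SRSF6 and SRSF3 lie below 0 at 120 min.

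After these levels were seen, the 120 min groups were also compared with the 10 min groups of the same compound, in the order of the labels. From 10 to 120 min of RBI2, 4 of 10 members fell (SRSF2, SRSF6, SRSF1 and SRSF3), all 10 estimates were negative, and 6.44% of genes were called, 3.01% lower. Over the same labels of CX-5461, 0 members were called by edgeR and 5 had an unadjusted p under 0.05 (20.1% of all genes), with estimates of 0.16 to 0.21 on the log2 scale (SRSF3, SRSF6, SRSF1, SRSF10 and SRSF7). DESeq2 called 0 members there, and edgeR 3.12% of all genes. The difference between the compounds in this change was tested as an interaction: SRSF6, SRSF1, SRSF7, SRSF2 and SRSF3 were called, all more negative for RBI2, where 4.22% of genes were called and 3.34% in that direction. With transcript length as an offset 0 members were called for the fall within RBI2 or for the interaction (adjusted p = 0.142 to 0.603 and 0.202 to 0.527 for the genes named). With the offset the fall within RBI2 was -0.30 for SRSF2, -0.30 for SRSF6, -0.23 for SRSF1 and -0.21 for SRSF3. Without the offset the values were -0.46 for SRSF2, -0.44 for SRSF6, -0.36 for SRSF1 and -0.24 for SRSF3. The interaction was called for 2 members without a filter on low counts and for 3 with DESeq2 size factors. The members' median was -0.26 for RBI2, 0.12 for CX-5461 and -0.44 for the interaction, against 0.0034, 0.058 and -0.024 over all genes.

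The comparison with the control asked which levels each compound changed. Only RBI2 at 120 min gave calls: SRSF5, SRSF10, SRSF1, SRSF2, SRSF3 and SRSF6 fell, 6 of 10 members, while 18.0% of genes were called, 9.07% lower and 8.90% higher. SRSF3, SRSF1 and SRSF2 kept their calls without control replicate 2. In the other 5 groups edgeR called 0 members; unadjusted p-values under 0.05 were found for 3, 5, 3, 3 and 2 members in RBI2 at 10 and 30 min and CX-5461 at 10, 30 and 120 min (12.9%, 25.8%, 22.5%, 22.9% and 12.4% of all genes), DESeq2 called 1, 2, 0, 0 and 0, and 0.201%, 0.0713%, 4.77%, 0% and 0.0778% of genes were called there. RBI2 at 120 min had mitochondrial shares of 9.36% and 11.3%, against 9.55% and 20.6% in the control, and their part in the result was not tested. Leaving out 1 library at a time gave 0 to 8 called members for RBI2 at 120 min: 0 without either of its own libraries, 3 without control replicate 2 and 8 without control replicate 1. With the offset for transcript length 0 were called, with only its 4 libraries 0 and without a filter on low counts 1. Fewer members were also called with the replicate block. In the other 5 groups, in the order above, 6, 6, 4, 6 and 4 members were called without control replicate 1, where 29.1%, 38.3%, 37.7%, 39.3% and 21.5% of genes were called, and 0 without any 1 of the other 13 libraries.

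Unproductive transcripts took very different parts of the members' reads. The unproductive share, the percentage of coding plus unproductive reads, had a median of 16.1% over the 10 members and of 8.28% over the 5902 genes with both classes above the filter. SRSF3 (40.2%), SRSF2 (35.2%) and SRSF7 (25.0%) had the highest medians over libraries, and SRSF6 the lowest (1.18%). Summed over the 10 members, the share was 21.5% and 28.4% in the control replicates. It was 17.6% and 17.9% after CX-5461 at 10 min, 20.4% and 18.1% at 30 min, then 21.2% and 22.8% at 120 min. After RBI2 it was 19.1% and 20.04% at 10 min, 18.6% and 18.9% at 30 min, then 19.8% and 20.6% at 120 min. The share over all genes stayed between 7.85% and 8.61%. Tests of the balance within a gene gave the log2 change of the unproductive to coding ratio, adjusted over the 5902 genes; Salmon splits reads among overlapping transcripts and the error of that split is not known here.

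**Figure D3:**
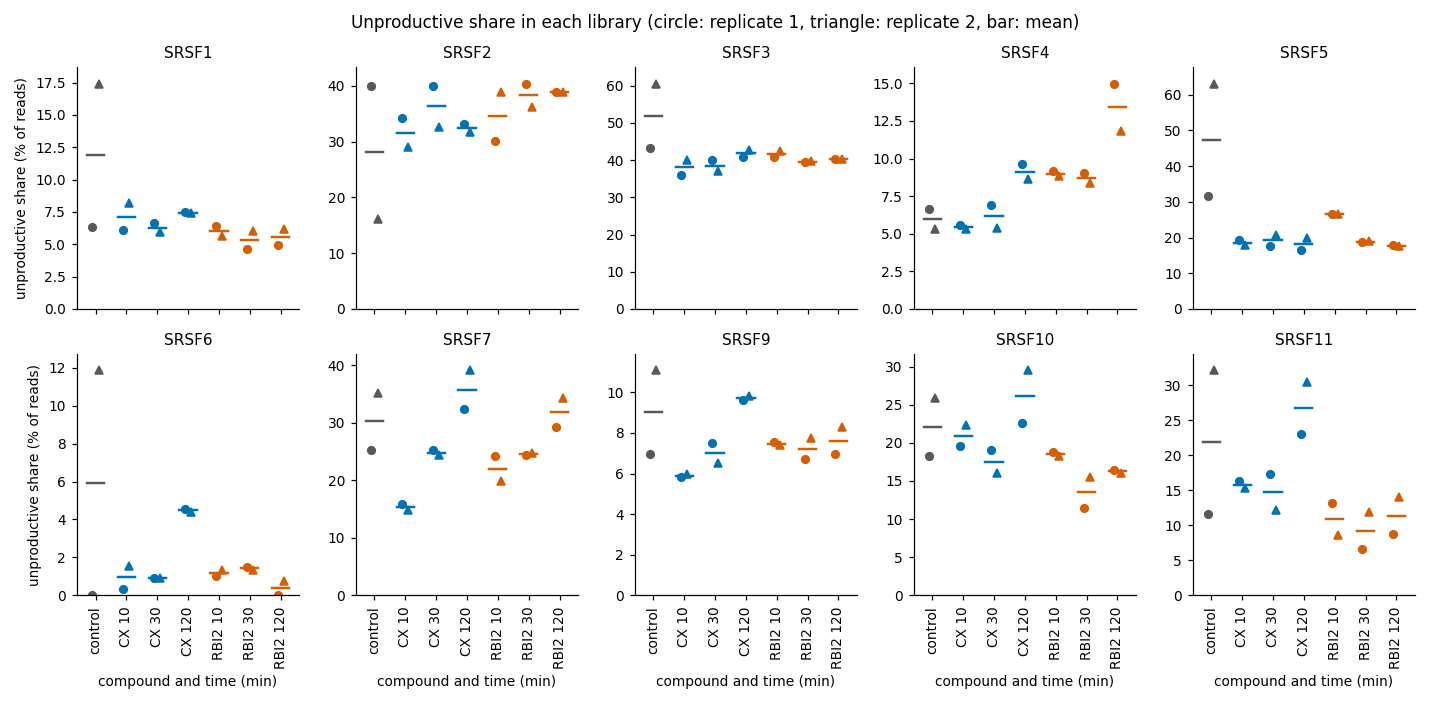
Unproductive share (% of coding plus unproductive estimated reads) of each SR gene in every library, 1 panel a gene; circles are replicate 1, triangles replicate 2 and bars group means. In SRSF7 the group mean of the treated groups is lowest at 10 min of CX-5461 and highest at 120 min of CX-5461, although 1 RBI2 library at 120 min lies between the 2 CX-5461 libraries there, in SRSF4 it is highest at 120 min of RBI2, and in SRSF5 both control libraries lie above the treated ones.

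Called changes of this ratio against the control were those of SRSF5 in 5 of 6 treated groups, SRSF7 and SRSF3 in CX-5461 at 10 min, and SRSF4 in RBI2 at 120 min. The background was 0.288%, 3.56% and 2.95% of genes for RBI2 at 10, 30 and 120 min and 6.07%, 0.627% and 4.91% for CX-5461. Between the compounds edgeR called 0 members at 10, 30 or 120 min, where 1.42%, 0.254% and 3.35% of genes were called, and unadjusted p-values under 0.05 were found for 2, 0 and 4 members (13.4%, 10.1% and 19.8% of genes). Without control replicate 1 or 2, 3, 0 and 4 members were called, where 4.27%, 1.20% and 9.67% or 4.02%, 1.20% and 9.69% of genes were. Neither limma fit of the log2 ratios called a member in any comparison. Of the levels of the members' 20 classes, 0 were called by edgeR for RBI2 at 10 and 30 min and CX-5461 at 30 and 120 min against the control, where 0.0865%, 0.0108%, 0% and 0.0486% of 18506 classes were called and 7, 5, 4 and 9 of the 20 had an unadjusted p under 0.05 (10.9%, 19.7%, 16.8% and 11.8% of all classes). Without control replicate 1 the calls were 12, 13, 13 and 14 of the 20, where 22.3%, 30.1%, 31.3% and 18.8% of classes were called, and without control replicate 2 they were 0, 1, 0 and 0. Without any 1 of the other libraries they were 0.

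SRSF7 (ENSG00000115875, chr2:38743599-38751494, minus strand) encodes an SR protein with a zinc knuckle that, with SRSF3, also takes part in mRNA export and 3′ end choice. Its unproductive transcripts fell and rose again over the labelled times of CX-5461. Their level was 41.1 and 48.3 CPM in control replicates 1 and 2. After CX-5461 it was 24.7 and 23.4 CPM at 10 min, 43.3 and 42.0 CPM at 30 min, then 59.5 and 69.4 CPM at 120 min. Both 10 min libraries lay below every other library and both 120 min libraries above every other one. After RBI2 the level was 45.5 and 35.6 CPM at 10 min, 37.3 and 38.2 CPM at 30 min, then 46.0 and 50.4 CPM at 120 min, within the range between the CX-5461 extremes. The fall against the control at 10 min was -0.90 ± 0.13 (SE, adjusted p = 0.0113), on the log2 scale, and without control replicate 2 it was -0.78 (adjusted p = 0.0485). It lost its call without either library of CX-5461 at 10 min (adjusted p = 0.0760 and 0.104); 2.04% of 18506 gene classes were called there. The rise from 10 to 120 min of CX-5461 was 1.42 ± 0.13 (SE, adjusted p = 0.00128), where 1.18% of classes were called, and it was called whichever library was left out (1.28 to 1.53). With only the 4 libraries of that comparison it was 1.36 (adjusted p = 0.0541).

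The coding transcripts of SRSF7 moved much less. They were at 121 and 89.4 CPM in the control, at 131 and 134 CPM after 10 min of CX-5461 and at 125 and 108 CPM after 120 min. The unproductive share was 25.3% and 35.1% in the control replicates. It was 15.9% and 14.8% at 10 min of CX-5461, 25.2% and 24.3% at 30 min, then 32.3% and 39.1% at 120 min, so that the 3 times did not overlap. After RBI2 it was 24.1% and 19.9%, 24.4% and 24.8% and 29.3% and 34.3%, also highest at 120 min. The log2 ratio of unproductive to coding reads fell by 1.22 at 10 min of CX-5461 against the control (adjusted p = 0.00513 from edgeR), or by 0.90 without control replicate 2 (adjusted p = 0.0380), and this call too was lost without either library of CX-5461 at 10 min (adjusted p = 0.0667 to 0.0798). From 10 to 120 min of CX-5461 it rose by 1.61 (adjusted p = 0.000195), while 2.19% of genes were called. This call was kept without each of the 14 libraries, and it was lost with limma on counts, 1.61 (adjusted p = 0.161), and on TPM, 1.86 (adjusted p = 0.127). From 10 to 120 min of RBI2 the ratio changed by 0.71 (adjusted p = 0.0926), where 1.07% of genes were called. The interaction of compound and time was -0.90 (adjusted p = 0.214, 0.220% of genes called) for the ratio, which was not called, and -1.18 ± 0.19 (SE, adjusted p = 0.0339) for the unproductive level, where 0.627% of classes were called. That last call was kept without either library of the control or CX-5461 at 30 min or replicate 2 of RBI2 at 10 min and lost without each of the other libraries (adjusted p = 0.0507 to 0.165). At 10 min the unproductive level was higher after RBI2 than after CX-5461 (0.76 ± 0.13 SE, adjusted p = 0.0283), where 1.56% of classes were called. It lost this call without either library of CX-5461 at 10 min or RBI2 at 30 min, replicate 2 of CX-5461 at 30 min, replicate 1 of RBI2 at 10 min or replicate 2 of RBI2 at 120 min (adjusted p = 0.0547 to 0.203).

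**Figure D4:**
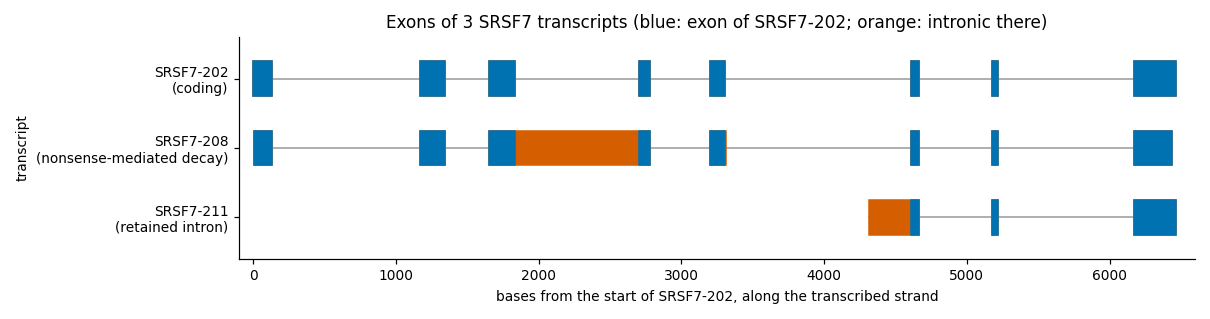
Exons of SRSF7-202 (coding), SRSF7-208 (nonsense_mediated_decay) and SRSF7-211 (retained_intron), drawn to scale in bases from the start of SRSF7-202, in the direction of transcription; blue marks exons of SRSF7-202 and orange bases that are intronic there. SRSF7-208 joins the third exon to the next by keeping the intron between them, and SRSF7-211 begins in the intron ahead of the sixth exon.

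The pair of unproductive SRSF7 transcripts followed singly differed from each other. SRSF7-208, whose kept intron holds the stop printed above, was at 31.1 and 35.6 TPM in the control. After CX-5461 it was at 16.7 and 18.7 TPM at 10 min, 29.0 and 19.8 TPM at 30 min, then 42.1 and 47.8 TPM at 120 min. After RBI2 it was at 38.4 and 27.6 TPM, 20.6 and 23.3 TPM and 23.9 and 30.6 TPM. It was thus lowest at 10 min of CX-5461 and highest at 120 min of CX-5461. SRSF7-211, whose 297 intronic bases are printed above, was at 15.7 and 4.53 TPM in the control. It was at 5.64 and 8.64 TPM, 25.2 and 27.2 TPM and 33.7 and 40.8 TPM after CX-5461 and at 15.2 and 12.2 TPM, 31.8 and 32.1 TPM and 36.4 and 46.8 TPM after RBI2. Its level was higher at each later label of both compounds, with no overlap between the times of a compound. The coding SRSF7-202 was at 126 and 130.1 TPM at 10 min and 114 and 89.8 TPM at 120 min of CX-5461. As single transcripts none of the 3 was called: from 10 to 120 min of CX-5461 the log2 change was 2.25 ± 0.36 (SE, adjusted p = 0.0734) for SRSF7-211 and 1.33 ± 0.23 (SE, adjusted p = 0.0934) for SRSF7-208, adjusted over 54804 transcripts.

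**Figure D5:**
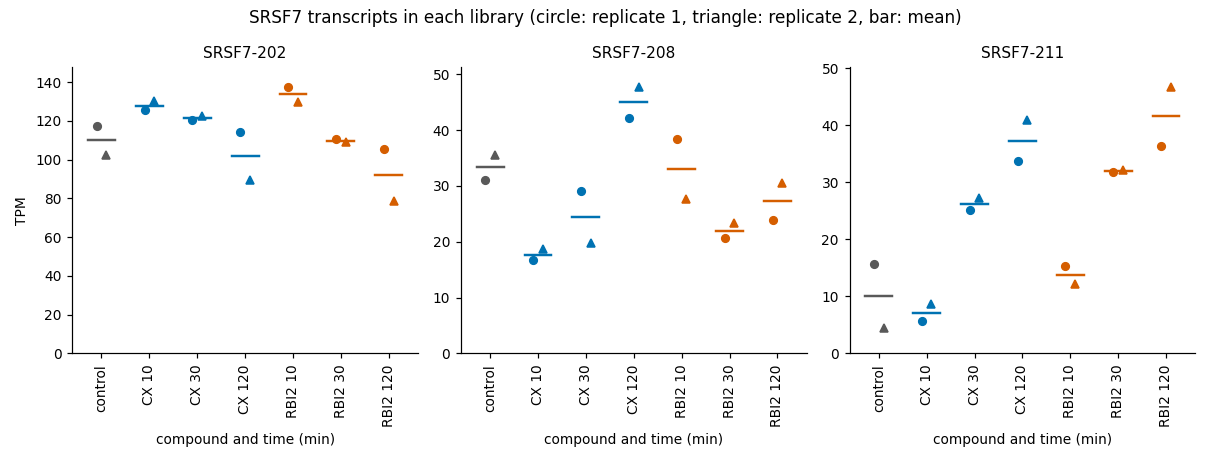
TPM of SRSF7-202, SRSF7-208 and SRSF7-211 in the 14 libraries; circles are replicate 1, triangles replicate 2 and bars group means. SRSF7-211 is higher at the later times of both compounds, and SRSF7-208 dips at 10 min of CX-5461.

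At the gene level SRSF7 was at 163 and 138 CPM in the control. After CX-5461 it was at 155 and 158 CPM at 10 min, 172 and 173 at 30 min, then 184 and 177 at 120 min, and after RBI2 at 189 and 179 CPM at 10 min, 153 and 154 at 30 min, then 157 and 147 at 120 min. Both RBI2 libraries were thus above both CX-5461 libraries at 10 min and below them at 120 min. RBI2 differed from CX-5461 by 0.23 ± 0.081 (SE, adjusted p = 0.192) at 10 min and by -0.25 ± 0.081 (SE, adjusted p = 0.0614) at 120 min, neither of them called, and the interaction of -0.48 ± 0.11 (SE, adjusted p = 0.0445) was called. That call was kept without either library of the control, and lost without each of the other 12 libraries (adjusted p = 0.0541 to 0.264).

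SRSF6 (ENSG00000124193, chr20:43457893-43466046, plus strand), a splicing activator with a pair of RNA recognition motifs, had an interaction of compound and time that was kept in more leave-one-out fits, 13 of 14, than that of any other member. It was at 290.2 and 313 CPM in the control replicates. After RBI2 it was at 356 and 356 CPM at 10 min, 265 and 266 at 30 min, then 262 and 261 at 120 min, and after CX-5461 at 276 and 285 CPM at 10 min, 288 and 279 at 30 min, then 313 and 319 at 120 min. The RBI2 libraries at 10 min were the highest of all 14, and those at 30 and 120 min lay below every control and CX-5461 library. The difference of RBI2 from CX-5461 was 0.34 ± 0.061 (SE, adjusted p = 0.0118) on the log2 scale at 10 min and -0.27 ± 0.061 (SE, adjusted p = 0.0176) at 120 min. From 10 to 120 min of RBI2 it fell by 0.44 ± 0.061 (SE, adjusted p = 0.00699). The interaction was -0.61 ± 0.086 (SE, adjusted p = 0.00689), and of the 14 libraries only leaving out replicate 1 of CX-5461 at 10 min ended its call (adjusted p = 0.0535). The 10 min difference lost its call without any 1 of its own 4 libraries (adjusted p = 0.0703 to 0.115), and the 120 min difference without either library of RBI2 at 120 min or replicate 2 of CX-5461 at 120 min (adjusted p = 0.0963 to 0.136). The fall within RBI2 lost its call without either library of RBI2 at 120 min or replicate 1 of RBI2 at 10 min (adjusted p = 0.0660 to 0.0838). With transcript length as an offset the interaction was -0.52 (adjusted p = 0.392) and the fall within RBI2 -0.30 (adjusted p = 0.513). Against the control the change at 120 min of RBI2 was -0.20 ± 0.061 (SE, adjusted p = 0.0428), and -0.16 (adjusted p = 0.108) without control replicate 2. That call was kept without control replicate 1 or replicate 2 of CX-5461 at 30 min only (adjusted p = 0.0553 to 0.201 without the others).

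The coding transcripts of SRSF6 also fell within RBI2. They were at 249 and 216 CPM in the control, the second of these below every RBI2 library, and at 313 and 307 CPM after 10 min and 231 and 219 CPM after 120 min of RBI2, a log2 change of -0.46 ± 0.071 (SE, adjusted p = 0.0297), where 1.55% of classes were called. It was kept without either library of the control or replicate 2 of CX-5461 at 30 min, and lost without each of the others (adjusted p = 0.05001 to 0.269). The interaction of compound and time was not called for the coding class (-0.55 ± 0.0996 SE, adjusted p = 0.0512). The poison-exon transcript SRSF6-202 was nearly absent from most libraries. The unproductive share was 0% and 11.9% in control replicates 1 and 2. It was 0.355% and 1.55% at 10 min, 0.913% and 0.897% at 30 min, then 4.58% and 4.40% at 120 min of CX-5461, and 1.03% and 1.32%, 1.52% and 1.35% and 0% and 0.773% for RBI2. A count of 0 allows a share of up to 0.0750% in control replicate 1 and 0.0768% in RBI2 at 120 min replicate 1, for counting error only. Both libraries of CX-5461 at 120 min were above every other library but control replicate 2. With all libraries no change of the ratio was called, and that at 120 min of CX-5461 was -0.31 (adjusted p = 0.784). Without control replicate 2 the control was 1 library with 0 unproductive reads. The fit then gave a rise at 120 min of CX-5461 (adjusted p = 0.00360), which compares with a count of 0, so neither a fold nor a call is taken from it.

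SRSF1 (ENSG00000136450, chr17:58000919-58007346, minus strand), the founding SR protein and a known oncogene, showed a difference between the compounds at 120 min. It was at 403 and 392 CPM in the control. CX-5461 gave 383 and 383 CPM at 10 min, 406 and 362 at 30 min, then 419.8 and 462 at 120 min, and RBI2 gave 434 and 413 CPM at 10 min, 369.8 and 379 at 30 min, then 319 and 341 at 120 min. Both 120 min libraries of RBI2 were the lowest of the 14, and both of CX-5461 were above the control. At 120 min RBI2 differed from CX-5461 by -0.42 ± 0.076 (SE, adjusted p = 0.0106) on the log2 scale. The call was lost without either library of RBI2 at 120 min or replicate 2 of CX-5461 at 120 min (adjusted p = 0.0677 to 0.103), and with the offset for transcript length, -0.14 (adjusted p = 0.659). Against the control SRSF1 changed by -0.27 ± 0.077 (SE, adjusted p = 0.0372) at 120 min of RBI2, and by -0.30 (adjusted p = 0.0473) without control replicate 2. From 10 to 120 min of RBI2 it changed by -0.36 ± 0.077 (SE, adjusted p = 0.0283), and the interaction was -0.56 ± 0.11 (SE, adjusted p = 0.0251). Each of the last 3 calls was lost without either library of RBI2 at 10, 30 or 120 min or of CX-5461 at 10 min, and all but that within RBI2 also without replicate 2 of CX-5461 at 120 min. The highest adjusted p was 0.243, 0.206 and 0.141. Coding transcripts carried the 120 min difference, 292 and 303 CPM for RBI2 against 379.6 and 422 CPM for CX-5461 (-0.43 ± 0.085 SE, adjusted p = 0.0279), where 6.52% of classes were called. This call was lost without either library of CX-5461 at 10 min or RBI2 at 30 or 120 min, replicate 2 of CX-5461 at 120 min or replicate 1 of RBI2 at 10 min (adjusted p = 0.0561 to 0.237). Up to 9.46% as many reads were assigned to an overlapping gene on the same strand, ENSG00000266086. The unproductive share of SRSF1 was 6.33% and 17.4% in control replicates 1 and 2 and between 4.61% and 8.19% in treated libraries, so that its high value belongs to control replicate 2 alone.

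SRSF5 (ENSG00000100650, chr14:69726900-69772005, plus strand), another member with a pair of RNA recognition motifs, had fewer unproductive transcripts in every treated library than in either control library. Its unproductive transcripts were at 51.4 and 81.9 CPM in the control. They were at 33.1 and 29.6 CPM, 26.2 and 25.3 CPM and 26.4 and 31.5 CPM at 10, 30 and 120 min of CX-5461. After RBI2 they were at 41.5 and 39.6 CPM at 10 min, 21.7 and 23.1 CPM at 30 min, then 22.4 and 22.0 CPM at 120 min. The 12 treated libraries did not overlap with the 2 control libraries. The share was 31.6% and 63.1% in control replicates 1 and 2, 19.3% and 17.8%, 17.7% and 20.8% and 16.5% and 19.9% after CX-5461, and 26.7% and 26.5%, 18.8% and 18.9% and 17.8% and 17.6% after RBI2. The log2 ratio to coding reads changed by -1.85 (adjusted p = 0.00886) at 10 min, -1.80 (adjusted p = 0.0423) at 30 min and -1.89 (adjusted p = 0.0121) at 120 min of CX-5461. For RBI2 it changed by -1.19 (adjusted p = 0.115) at 10 min, -1.83 (adjusted p = 0.0223) at 30 min and -1.94 (adjusted p = 0.0143) at 120 min. Without control replicate 2 these changes came to -1.02 (adjusted p = 0.00755), -0.96 (adjusted p = 0.0434) and -1.06 (adjusted p = 0.00643) for CX-5461 and -0.35 (adjusted p = 0.525), -0.99 (adjusted p = 0.0352) and -1.10 (adjusted p = 0.00675) for RBI2, so the 5 calls held at a smaller size. Among the fits that left out 1 library, all but that of CX-5461 at 30 min were otherwise lost only without 1 of the 2 libraries of the treated group. The call at 30 min of CX-5461 was kept there without either library of the control only. All 5 calls were also lost in both limma fits and with only the 4 libraries compared. In levels, the unproductive class fell by 1.59 ± 0.19 (SE, adjusted p = 0.0121) at 120 min of RBI2, where 5.63% of classes were called. It was -1.22 (adjusted p = 0.0134) without control replicate 2. At 10 min of CX-5461 it changed by -1.08 ± 0.19 (SE, adjusted p = 0.0234), and by -0.71 (adjusted p = 0.0261) without that library. The first of these calls was lost without either library of RBI2 at 120 min (adjusted p = 0.0633 to 0.0979), and the second without either library of CX-5461 at 10 min, replicate 2 of RBI2 at 10 min or replicate 2 of RBI2 at 30 min (adjusted p = 0.0510 to 0.169). At 30 min of RBI2 the class was called only without control replicate 2, -1.57 (adjusted p = 0.0596) with it and -1.21 (adjusted p = 0.0198) without it. The gene-level fall at 120 min of RBI2 was -0.32 ± 0.081 (SE, adjusted p = 0.0263), and -0.25 (adjusted p = 0.0773) without control replicate 2: 188 and 209 CPM in the control against 149 and 167 CPM. Among the fits that left out 1 library, this call was otherwise lost only without either library of RBI2 at 120 min. It was also lost with the length offset, with only the 4 libraries compared and under the 2-fold limit. The lowest gene-level values of SRSF5 were those of RBI2 at 30 min, 140.1 and 136 CPM, whose estimate of -0.52 ± 0.081 (SE, adjusted p = 0.0622) was larger but not called. SRSF5-211, printed above, held 42.4% of its unproductive reads on average and ranged from 0 to 409.9 reads a library; which transcripts made up the change of the class was not tested. Transcripts outside both classes held 10.1% to 37.8% of the reads of SRSF5.

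SRSF4 (ENSG00000116350, chr1:29147743-29181900, minus strand), the least abundant member, gained unproductive reads at 120 min of RBI2. They were at 6.15 and 6.39 CPM in the control. After RBI2 they were at 9.11 and 8.96 CPM at 10 min, 8.28 and 7.46 CPM at 30 min, then 14.6 and 11.96 CPM at 120 min. After CX-5461 they were at 4.90 and 4.45 CPM, 6.19 and 4.71 CPM and 8.44 and 7.71 CPM. Every RBI2 library lay above both control libraries, and both at 120 min above all the others. Coding transcripts were at 87.1 and 114 CPM in the control and 82.7 and 89.1 CPM at 120 min of RBI2. The share was 6.62% and 5.30% in the control and 14.99% and 11.8% at 120 min of RBI2. The ratio to coding reads rose by 1.32 (adjusted p = 0.00971) there, or by 1.14 (adjusted p = 0.0164) without control replicate 2, and the unproductive level by 1.08 ± 0.18 (SE, adjusted p = 0.0210), or 1.10 (adjusted p = 0.0455). Of the 14 libraries only leaving out replicate 1 of RBI2 at 120 min ended the call of the ratio (adjusted p = 0.114). The level lost its call without either library of RBI2 at 120 min or replicate 2 of RBI2 at 30 min (adjusted p = 0.0525 to 0.118). RBI2 exceeded CX-5461 in unproductive level by 0.95 ± 0.18 (SE, adjusted p = 0.0372) at 10 min and 0.72 ± 0.18 (SE, adjusted p = 0.0462) at 120 min. The first call was kept without either library of the control or CX-5461 at 30 min only, and so was the second (adjusted p = 0.0583 to 0.275 and 0.0656 to 0.229 without the others). Most of these reads came from SRSF4-207, a retained_intron transcript of 8128 bases (chr1:29147853-29173494, minus strand), which held 86.1% of the unproductive reads on average and was looked at after the class had been seen to change. SRSF4-207 was at 1.23 and 0.650 TPM in the control. After RBI2 it was at 1.59 and 1.28 TPM at 10 min, 1.40 and 1.45 TPM at 30 min, then 2.699 and 2.36 TPM at 120 min. After CX-5461 it was at 0.963 and 0.878 TPM, 1.108 and 0.839 TPM and 1.01 and 1.04 TPM. All 6 RBI2 libraries lay above all 8 others, and those at 120 min were the highest. As a single transcript its change at 120 min of RBI2 was 1.06 ± 0.24 (SE, adjusted p = 0.186) against the control and 1.299 ± 0.24 (SE, adjusted p = 0.117) against CX-5461. SRSF4-205, the start of whose poison exon is printed above, averaged 0.607 TPM. The retained_intron SRSF4-204 was at 9.13 and 7.77 TPM at 120 min of CX-5461 and listed at 0 in both control libraries and at 120 min of RBI2. Counts were small: unproductive reads of SRSF4 came to 74.1 to 247 per library. At the gene level no change was called, with 93.3 and 120.5 CPM in the control and 84.2 to 101 CPM in treated libraries.

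SRSF9 (ENSG00000111786, chr12:120461672-120495946, minus strand), a close relative of SRSF1, was at 263 and 151 CPM in control replicates 1 and 2 and at 216 to 279 CPM in treated libraries. Its level in control replicate 2 lay below that of every other library, and no gene-level change was called. The unproductive class was at 16.1 and 15.8 CPM at 10 min and 24.5 and 23.2 CPM at 120 min of CX-5461, a rise of 0.58 ± 0.11 (SE, adjusted p = 0.0403). It was at 17.3 and 17.9 CPM at 120 min of RBI2, which differed from CX-5461 by -0.44 ± 0.11 (SE, adjusted p = 0.0439). Both calls were kept without either library of the control, and were lost without each of the other 12 libraries (adjusted p = 0.0626 to 0.317 and 0.0533 to 0.281). NRAV, a long non-coding RNA on the same strand, overlaps SRSF9 and had up to 11.4% as many reads.

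SRSF2 (ENSG00000161547, chr17:76734115-76737333, minus strand) binds exonic enhancers rich in C or G. It was at 396 and 357 CPM in the control. After RBI2 it was at 454 and 435 CPM at 10 min, 366 and 358 at 30 min, then 334 and 314 at 120 min, and after CX-5461 at 367 and 358 CPM at 10 min, 377 and 376 at 30 min, then 365 and 372 at 120 min. As with SRSF6, the 10 min libraries of RBI2 were the highest and its 120 min libraries the lowest of the 14. RBI2 exceeded CX-5461 at 10 min by 0.29 ± 0.068 (SE, adjusted p = 0.0456), a call kept only without either library of the control (adjusted p = 0.0674 to 0.395 without the others). At 120 min the difference was -0.19 ± 0.068 (SE, adjusted p = 0.0884). From 10 to 120 min of RBI2 SRSF2 changed by -0.46 ± 0.068 (SE, adjusted p = 0.0108), a call lost without either library of RBI2 at 120 min or replicate 1 of RBI2 at 10 min (adjusted p = 0.0898 to 0.158), and the interaction was -0.48 ± 0.096 (SE, adjusted p = 0.0287), kept without either library of the control or replicate 2 of CX-5461 at 30 min (adjusted p = 0.0542 to 0.196 without the others). Against the control RBI2 at 120 min gave -0.22 ± 0.068 (SE, adjusted p = 0.0498), and -0.30 (adjusted p = 0.0208) without control replicate 2, the only library whose removal kept this call. The unproductive share was 40.0% and 16.1% in control replicates 1 and 2 and 29.1% to 40.4% in treated libraries, and no ratio was called. The retained_intron transcript SRSF2-206 was at 129 and 3.31 TPM in control replicates 1 and 2, and the second of these lay below all other libraries.

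SRSF3 (ENSG00000112081, chr6:36594353-36605600, plus strand) was at 413 and 391 CPM in the control. CX-5461 gave 359.7 and 363 CPM at 10 min, 392 and 399 at 30 min, then 409 and 401 at 120 min, and RBI2 gave 418 and 407 CPM at 10 min, 358 and 357 at 30 min, then 359.7 and 338 at 120 min. At 120 min RBI2 differed from CX-5461 by -0.22 ± 0.061 (SE, adjusted p = 0.0375), and the interaction was -0.40 ± 0.086 (SE, adjusted p = 0.0338). The fall from 10 to 120 min of RBI2 was -0.24 ± 0.061 (SE, adjusted p = 0.0445), and the change against the control -0.20 ± 0.061 (SE, adjusted p = 0.0428), or -0.25 (adjusted p = 0.0354) without control replicate 2. Each of these 4 calls was lost without either library of RBI2 at 10, 30 or 120 min, of CX-5461 at 10 or 120 min or replicate 1 of CX-5461 at 30 min, and the fall within RBI2 also without replicate 2 of the last group (adjusted p up to 0.331). With the replicate block edgeR did not call the fall within RBI2 (adjusted p = 0.0573) or the interaction (adjusted p = 0.0503). Many SRSF3 reads were unproductive: the share was 43.2% and 60.6% in control replicates 1 and 2. It was 36.0% and 40.1%, 39.9% and 37.0% and 40.8% and 42.8% after CX-5461 and 40.9% and 42.4%, 39.4% and 39.9% and 40.2% and 40.2% after RBI2. The ratio at 10 min of CX-5461 changed by -0.79 (adjusted p = 0.0263), but by -0.31 (adjusted p = 0.216) without control replicate 2, so this call rests on that library; it was also lost without either library of CX-5461 at 10 min or replicate 1 of RBI2 at 30 or 120 min. The unproductive level was -0.59 ± 0.12 (SE, adjusted p = 0.0396) at 10 min of CX-5461 and -0.57 ± 0.12 (SE, adjusted p = 0.0336) at 120 min of RBI2, and -0.37 (adjusted p = 0.0538) and -0.36 (adjusted p = 0.0484) without control replicate 2. The first was kept only without control replicate 1 (adjusted p = 0.0530 to 0.227 without the others), and the second was lost without either library of CX-5461 at 10 min or RBI2 at 30 or 120 min, replicate 1 of CX-5461 at 120 min or replicate 2 of RBI2 at 10 min (adjusted p = 0.0505 to 0.160). Of the unproductive SRSF3 reads 52.7% on average came from the retained_intron SRSF3-205, with a mean of 70.7 TPM over the libraries. SRSF3-203, the start of whose poison exon is printed above, was at 9.94 and 55.6 TPM in the control and at 11.8 and 13.1 TPM and 10.97 and 13.7 TPM at 10 min of CX-5461 and RBI2.

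SRSF10 (ENSG00000188529, chr1:23964347-23980927, minus strand), known as a splicing repressor when it is dephosphorylated, was at 174 and 204 CPM in the control. It was at 177 and 181 CPM at 10 min, 183 and 163 at 30 min, then 196 and 217 at 120 min of CX-5461 and at 190.2 and 184 CPM at 10 min, 157 and 162 at 30 min, then 153 and 156 at 120 min of RBI2. Both CX-5461 libraries at 120 min lay above all RBI2 libraries. At 120 min RBI2 differed from CX-5461 by -0.42 ± 0.090 (SE, adjusted p = 0.0157), a call lost without either library of RBI2 at 120 min or replicate 2 of CX-5461 at 120 min (adjusted p = 0.0873 to 0.115) and with the length offset, -0.23 (adjusted p = 0.608). Against the control RBI2 at 120 min gave -0.29 ± 0.090 (SE, adjusted p = 0.0492), and -0.18 (adjusted p = 0.183) without control replicate 2. It was kept without either library of CX-5461 at 30 min or control replicate 1 only (adjusted p = 0.0503 to 0.209 without the others). The unproductive class was at 29.5 and 41.6 CPM in the control and at 40.9 and 59.4 CPM and 23.2 and 22.8 CPM at 120 min of CX-5461 and RBI2, a difference between the compounds of -1.12 ± 0.25 (SE, adjusted p = 0.0342). It was lost without either library of CX-5461 at 10 min or RBI2 at 10, 30 or 120 min or replicate 2 of CX-5461 at 120 min (adjusted p = 0.0513 to 0.211). The ratio to coding reads differed by -0.86 (adjusted p = 0.0520). SRSF10-213, which takes in the end of the AT to AC intron printed above, was at 11.9 and 12.4 TPM in the control, 17.0 and 26.1 TPM at 120 min of CX-5461 and 9.24 and 10.1 TPM at 120 min of RBI2, and was not called as a single transcript (-1.16 ± 0.28 SE, adjusted p = 0.200).

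SRSF11 (ENSG00000116754, chr1:70205682-70253052, plus strand), an SR-related protein that contacts the splicing factor U2AF, was called in no comparison. It was at 187 and 218 CPM in the control, at 185 and 170.3 CPM at 10 min, 176 and 187 at 30 min, then 188 and 186 at 120 min of CX-5461 and at 196 and 187 CPM at 10 min, 183 and 182 at 30 min, then 182 and 178 at 120 min of RBI2. RBI2 and CX-5461 differed by 0.11 (95% interval -0.087 to 0.30), 0.0077 (-0.19 to 0.20) and -0.057 (-0.25 to 0.14) on the log2 scale at 10, 30 and 120 min. The unproductive share was 11.6% and 32.2% in control replicates 1 and 2. It was 16.3% and 15.3%, 17.3% and 12.2% and 23.1% and 30.6% at 10, 30 and 120 min of CX-5461, and 13.2% and 8.67%, 6.56% and 11.9% and 8.77% and 14.02% of RBI2. Both CX-5461 libraries at 120 min lay above all 6 RBI2 libraries, and the difference in ratio of -1.54 (adjusted p = 0.0520) was not called. The retained_intron SRSF11-214 was at 18.9 and 26.3 TPM in CX-5461 and 5.97 and 9.48 TPM in RBI2 at 120 min. Transcripts outside both classes held 3.31% to 41.3% of its reads.

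Members that were not called between the compounds at 120 min differed by -0.18 (95% interval -0.37 to 0.011) for SRSF5, -0.19 (-0.35 to -0.025) for SRSF2, -0.25 (-0.44 to -0.057) for SRSF7, 0.16 (-0.080 to 0.40) for SRSF4 and -0.078 (-0.53 to 0.37) for SRSF9 on the log2 scale. These intervals use the 7 residual degrees of freedom of the model, and include changes as large as some of those called. The spread is taken over all groups, so that of SRSF9 takes in control replicates 1 and 2, at 263 and 151 CPM. Of the 29 transcripts followed singly, 26 passed the filter, and 0 were called by edgeR in any of the 12 comparisons, where 0.0438% to 0.374% of 54804 transcripts were called and 1 to 9 of the 26 had an unadjusted p under 0.05 (4.07% to 10.4% of all transcripts).

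Other genes of the splicing pathway were counted in lists. At 120 min of RBI2 against the control, where 18.0% of genes were called, 6 of 13 tested SR protein kinases, phosphatases and import factors fell and 0 rose, with a list median of -0.26 on the log2 scale. Of 28 hnRNP proteins, the frequent opponents of SR proteins at exons, 4 fell and 0 rose (median -0.13). Of 27 SR-related proteins 2 rose and 2 fell, and of 15 nonsense-mediated decay factors 3 rose and 1 fell (medians -0.080 and -0.045). Without control replicate 2, where 8.27% of genes were called, 0 kinases and import factors rose and 3 fell, 1 hnRNP gene rose and 0 fell, 5 SR-related genes rose and 1 fell, and 3 decay factors rose and 0 fell. At 10 min of CX-5461, where 4.77% of genes were called, 2.98% lower and 1.80% higher, 4 kinases and import factors, 1 SR-related gene and 0 decay factors fell, and 1 hnRNP gene rose. Without control replicate 2, where 3.01% of genes were called, 2 kinases and import factors fell and 0 genes of the other 3 lists were called. The largest changes were in the CLK kinases, which phosphorylate SR proteins. CLK1 was at 57.7 and 69.3 CPM in the control, 28.1 and 27.8 CPM at 10 min, 38.3 and 36.4 CPM at 30 min and 30.2 and 31.5 CPM at 120 min of CX-5461. At the same labels of RBI2 it was at 54.4 and 47.6 CPM, 35.4 and 33.1 CPM and 25.9 and 25.4 CPM. All 12 treated libraries lay below both control libraries. It changed by -1.18 ± 0.10 (SE, adjusted p = 0.000145) at 10 min of CX-5461 and -1.30 ± 0.11 (SE, adjusted p = 0.00119) at 120 min of RBI2, and by -1.04 (adjusted p = 0.000133) and -1.17 (adjusted p = 0.00181) without control replicate 2. It was also called at 120 min of CX-5461 (-1.04, adjusted p = 0.00510) and at 30 min of RBI2 (-0.89, adjusted p = 0.0226), the 1 kinase called in each of these groups, and it was -0.93 (adjusted p = 0.00376) and -0.76 (adjusted p = 0.0269) there without that library. CLK4 changed by -0.89 ± 0.13 (SE, adjusted p = 0.00692) at 120 min of RBI2 (-0.70, adjusted p = 0.0119 without control replicate 2), and CLK2 by -0.81 ± 0.14 (SE, adjusted p = 0.00930) at 10 min of CX-5461 (-0.57, adjusted p = 0.0263 without it).

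Among the decay factors, UPF1, the central helicase of nonsense-mediated decay, rose at 120 min of RBI2 by 0.65 ± 0.10 (SE, adjusted p = 0.00737), from 129.6 and 112 CPM to 194 and 186 CPM (0.55, adjusted p = 0.0135 without control replicate 2). SMG6, its endonuclease partner, rose by 0.49 ± 0.076 (SE, adjusted p = 0.00753) (0.47, adjusted p = 0.0135), and SMG5 by 0.51 ± 0.11 (SE, adjusted p = 0.0175) (0.31, adjusted p = 0.0222). In the SR-related list SCAF1 rose by 0.75 ± 0.13 (SE, adjusted p = 0.00920) (0.53, adjusted p = 0.0119). LUC7L3, a U1 snRNP associated protein, fell by 0.35 (adjusted p = 0.0178), and RBM39 by 0.33 (adjusted p = 0.0353), against -0.26 (adjusted p = 0.0496) and -0.18 (adjusted p = 0.118) without control replicate 2. Of the hnRNP genes, HNRNPDL changed by -0.38 ± 0.096 (SE, adjusted p = 0.0279) and HNRNPH2 by -0.31 ± 0.085 (SE, adjusted p = 0.0337) at 120 min of RBI2, and -0.23 (adjusted p = 0.0999) and -0.26 (adjusted p = 0.0885) without that library. HNRNPM changed by 0.23 ± 0.059 (SE, adjusted p = 0.0493) at 10 min of CX-5461 (0.20, adjusted p = 0.133).

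Over the 7 group means of log2 CPM, the members differed in how closely they followed their common mean. Each member is itself part of that mean, so part of its r with the mean is fixed in advance. Pearson's r with that mean was 0.973 for SRSF6, 0.936 for SRSF3, 0.900 for SRSF1, 0.869 for SRSF2 and 0.860 for SRSF10. It was 0.718 for SRSF7, 0.648 for SRSF11, 0.514 for SRSF5, 0.241 for SRSF4 and -0.081 for SRSF9. Of the 45 pairs of members 36 had a positive r, with a median of 0.443 and a range of -0.741 to 0.922. The share of positive pairs over all genes is not given here, so the count has no background beside it. Among 9156 other genes with a mean of at least 10 CPM, those closest to the members' mean were YTHDF2 (r = 0.988), TMEM87A (0.980), CENPN (0.976), SLC19A2 (0.976) and ZNF367 (0.9746). These are descriptions over 7 points that share libraries and scaling.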

How the data were processed

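Polyadenylated RNA of MDA-MB-231 cells was sequenced with the KAPA Stranded mRNA-Seq kit on a HiSeq2000 instrument in 14 libraries, 2 per group. The authors first took out reads of the rDNA repeat and assigned the remaining ones to GRCh38 transcripts. The submitters' processing notes name Salmon 1.3.0, DESeq2 1.28.1, STAR 2.7.6a, SAMtools 1.11 and bedtools 2.29.2. The authors deposited 1 Salmon table per library with the estimated count of reads per transcript, which is not normalized. The same deposited tables hold TPM values, which Salmon scales by effective transcript length and library.

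Of 228754 deposited transcripts, 225662 were matched to GENCODE 44 by identifier (214947 with the same version), and the 3092 others, holding 1.03% to 1.13% of the reads, were left out. Estimated counts were summed per gene, or per gene and transcript class, rounded to whole numbers and tested with edgeR 4.0.16 (R 4.3.3, limma 3.58.1), with TMM scaling, filterByExpr at a minimum count of 10, quasi-likelihood tests and 1 model of 7 groups. Testing covered 15426 genes, 18506 gene classes and 54804 transcripts, and the ratio of classes (diffSpliceDGE) 5902 genes. Values were called at a Benjamini-Hochberg adjusted p under 0.05 over all features tested. Total reads were 14112299 to 24849354 per library, and the common coefficient of variation of genes was 12.3%. Limits for a count of 0 use 3 counts and cover counting error only. The code was tested on simulated data, after which the fit of the ratio was set to edgeR's bias-adjusted deviances.

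Named genes and transcripts were the 10 members, for each member the coding, retained_intron and nonsense_mediated_decay transcript with the highest mean TPM, from each list the 3 genes with the lowest p among those called against the control, and the 5 genes closest to the members' mean pattern over 7 group means, among genes with a mean of at least 10 CPM. Members and lists were chosen with earlier results of these data known. The comparisons of 120 with 10 min, their interaction, and SRSF4-207 as the carrier of a class change were chosen after the data had been seen. Alternatives were DESeq2 1.42.0, its size factors, no filter, a length offset, a 2-fold limit, a replicate block, only the 4 libraries compared, each library left out, limma on log2 ratios of classes (pseudocount 0.5 for counts and 0.1 for TPM), each unproductive type alone, and only transcripts of the same version.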

Additional observations from a re-analysis of the deposited data

Results flagged for a closer look

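The 6 values below drew attention because the change from 10 to 120 min differed between the compounds by a test of the difference itself, the interaction of compound and time in edgeR's quasi-likelihood test. As the log2 change in RBI2 minus that in CX-5461, the gene-level values were -0.61 for SRSF6, -0.56 for SRSF1, -0.48 for SRSF7, -0.48 for SRSF2 and -0.40 for SRSF3. For the unproductive transcripts of SRSF7 the value was -1.18. In all of them the change was more negative after RBI2. These directions follow the time labels, whose order the file codes put in doubt. The libraries without which each call was lost are given with each gene. With transcript length as an offset all 5 gene-level calls were lost (SRSF6 -0.52, adjusted p = 0.392; SRSF1 -0.35, adjusted p = 0.527; SRSF7 -0.26, adjusted p = 0.441; SRSF2 -0.36, adjusted p = 0.229; SRSF3 -0.42, adjusted p = 0.202).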

How the results depend on the processing

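The alternatives gave 896 values for the 46 called values of the members: 450 kept their call, 446 lost it and 0 changed direction. No called value passed a 2-fold limit at the gene level, so all counts there were 0 under that limit. At the gene level, the counts for RBI2 against CX-5461 at 10 min (2) became 1 with DESeq2 size factors, 1 with the replicate block, 0 without a filter, 0 with the length offset and 6 with only the 4 libraries compared. At 120 min (4) they became 2 without a filter and 1 with the offset. For RBI2 at 120 against 10 min (4), DESeq2 and the 4 libraries alone each gave 6 and the offset 0. The replicate block ended the call of SRSF3 there (adjusted p = 0.0573 from edgeR). The interaction (5) became 3 with DESeq2 size factors, 3 with the replicate block, 2 without a filter and 0 with the offset. RBI2 at 120 min against the control (6) became 4 with size factors, 1 without a filter, 0 with the offset, 0 with its 4 libraries alone and 1 with the replicate block. Comparisons with 0 calls gave 1 without a filter (CX-5461 at 10 and 30 min and RBI2 at 10 min against the control) and 1 with DESeq2 (RBI2 at 10 min). RBI2 at 30 min gave 2 with DESeq2, 2 without a filter and 1 with size factors. The offset moved the median of all genes by up to 0.118 on the log2 scale, the widest shift of any setting.

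For class levels, with only the 4 libraries compared 0 were called throughout. The replicate block changed the counts for CX-5461 at 10 min against the control (3 to 2), at 120 against 10 min (2 to 1), RBI2 against CX-5461 at 10 min (2 to 1) and 120 min (4 to 3) and the interaction (1 to 0, the unproductive SRSF7 transcripts, adjusted p = 0.0711). For the ratio, both limma fits gave 0 in every comparison. With nonsense_mediated_decay transcripts alone, 1 member was called at 10 min of CX-5461 and 0 in all other comparisons with the control. With retained_intron transcripts alone, 2, 0 and 2 were called at 10, 30 and 120 min of CX-5461, 3 at 120 min of RBI2, 2 between the compounds at 120 min and 1 for RBI2 at 120 against 10 min. With only the 4 libraries compared, 0 were called against the control, 1, 0 and 3 between the compounds at 10, 30 and 120 min, 3 for CX-5461 and 1 for RBI2 at 120 against 10 min. The replicate block gave 2 for CX-5461 at 30 min, 4 for RBI2 at 30 min and 2 between the compounds at 120 min. Replicate numbers did not pair the libraries: over 21 pairs of groups the deviations of same-numbered libraries correlated by -0.18 to 0.18, with 3 over 0.1.

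Leaving out 1 library at a time gave these counts at the gene level. Against the control they were 0 to 6, 0 to 6 and 0 to 8 for RBI2 and 0 to 4, 0 to 6 and 0 to 4 for CX-5461 at 10, 30 and 120 min. Between the compounds they were 0 to 5, 0 to 0 and 0 to 7, for 120 against 10 min 0 to 6 in RBI2 and 0 to 2 in CX-5461, and for the interaction 0 to 6. Class levels gave 0 to 12, 0 to 13 and 0 to 14 (RBI2), 0 to 13, 0 to 13 and 0 to 14 (CX-5461), 0 to 4, 0 to 0 and 0 to 14 (between compounds), 0 to 7, 1 to 3 and 0 to 8 (within RBI2, within CX-5461 and interaction). Ratios gave 0 to 9, 0 to 10 and 0 to 9, then 0 to 8, 0 to 9 and 0 to 6, then 0 to 3, 0 to 0 and 0 to 4, then 0 to 3, 1 to 4 and 0 to 1, in the same order. The high ends came without control replicate 1 or 2. The cause of these changes was not tested. With 2 libraries a group, small changes are within the limits of depth and spread, and an unproductive class such as that of SRSF4 rests on 74.1 to 247 reads per library.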

Other observations

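Several members had reads in transcripts outside the coding and unproductive classes. These took 7.14% to 21.6% of the reads of SRSF6, 2.67% to 21.0% of SRSF10 and 1.40% to 5.23% of SRSF1. Genes that overlap a member on the other strand had up to 3.60% as many reads as SRSF2 (MFSD11), 52.7% as many as SRSF9 (GATC) and 190% as many as SRSF9 (DYNLL1). The kit used keeps the strand. Processed pseudogenes of the members had at most 0.0464% as many reads as their parent gene.

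The carriers of the unproductive reads differed between the members. SRSF6 has SRSF6-202 as its 1 unproductive transcript in the annotation, so no share is given for it. SRSF1-207 held 98.9% of those of SRSF1 on average. SRSF10-213 held 95.4% and SRSF11-214 94.5% of their gene's unproductive reads. SRSF2-206 held 71.5%, from 6.93% to 85.9% by library, SRSF7-208 69.5% and SRSF9-204 64.0%. These shares rest on Salmon's split of reads among overlapping transcripts.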
